A study of Mus musculus with 12 samples.

Results

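Liver RNA of obese and lean mice was sequenced and assembled into transcripts, and the assembled transcripts that carried no gene name are described here. They were taken from the deposited table of each model as entries with no gene name that the authors' software could test, with a locus of at least 200 bases and a higher group value between 0.5 and 1000 FPKM (fragment count scaled by transcript length and by the mapped fragments of the library). The rule retained 638 of 62486 listed transcripts in the table of HFD against CD and 834 of 62945 in the table of db against misty. The transcripts were selected on these FPKM values, so all levels and ratios below are descriptions and carry no test. The study compared livers of 3 mice in each of 4 groups. HFD mice were C57BL/6N males on a high-fat diet with 54% of the energy from fat, and CD mice were males of the same strain on a control diet with 11%, both sampled at 36 weeks per the labels. The db mice carried the Leprdb mutation of the leptin receptor in every cell of the body, and the misty mice, labelled Dock7m +/+ Leprdb, served as their lean controls. The methods section describes both as males on the BKS.Cg-Dock7m background, with misty/misty littermates as the controls. Strain thus differs between the models as well as the kind of obesity. Both genotypes received the control diet, and the labels give 36 weeks for them too, although the methods section states that these animals were younger. Each table holds 1 FPKM per group, pooled over its 3 livers by the authors, so the spread between livers and the depth of each library are unknown. The tables were assembled and normalised separately. Levels are therefore compared only within a model, and only ratios are set side by side across models.

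Transcript assembly joins overlapping reads into models of RNA molecules. A model outside every annotated gene can be an unlisted long non-coding RNA, an extension of a neighbouring gene beyond its annotated end, a promoter or enhancer transcript, a read-through product, or a short structured RNA such as a tRNA or its precursor. Long non-coding RNAs are often expressed at low levels and in few tissues, so annotations differ in which of them they list. In liver, long non-coding RNAs are known that respond to feeding, to sex-dependent growth hormone signals and to nuclear receptors.

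Some loci that were lower or higher in both kinds of obesity covered, or had an edge at, the start of a gene listed by RefSeq. The RefSeq promoters (build GRCm38.p6, 250 bases before to 50 after the gene's start, read on the gene's strand) of 4 such genes are shown, 3 because they hold a match to a motif searched and BC049987 as an example from a locus that was higher in both models. They are Gm33459 (chr9:74528637-74528936, minus strand), Gm46545 (chr16:24082641-24082940, minus strand), Gm34654 (chr9:77851855-77852154, minus strand) and BC049987 (chr9:44672211-44672510, minus strand). Capitals mark matches on either strand to TTCNNNGAA, the palindromic core bound by STAT factors and BCL6, or to TGACNNNGC, the core of the antioxidant response element.
Gm33459: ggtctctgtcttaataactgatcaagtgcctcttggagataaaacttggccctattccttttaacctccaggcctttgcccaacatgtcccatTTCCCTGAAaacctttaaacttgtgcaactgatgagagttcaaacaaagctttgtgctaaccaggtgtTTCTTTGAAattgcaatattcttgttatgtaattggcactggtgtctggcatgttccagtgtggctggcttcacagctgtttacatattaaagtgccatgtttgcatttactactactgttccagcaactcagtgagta
Gm46545: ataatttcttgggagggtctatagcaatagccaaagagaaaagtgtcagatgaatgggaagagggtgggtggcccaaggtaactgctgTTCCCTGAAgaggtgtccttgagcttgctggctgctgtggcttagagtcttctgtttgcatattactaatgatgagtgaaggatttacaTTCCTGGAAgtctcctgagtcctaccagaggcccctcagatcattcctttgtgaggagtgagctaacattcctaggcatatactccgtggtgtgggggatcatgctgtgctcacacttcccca
Gm34654: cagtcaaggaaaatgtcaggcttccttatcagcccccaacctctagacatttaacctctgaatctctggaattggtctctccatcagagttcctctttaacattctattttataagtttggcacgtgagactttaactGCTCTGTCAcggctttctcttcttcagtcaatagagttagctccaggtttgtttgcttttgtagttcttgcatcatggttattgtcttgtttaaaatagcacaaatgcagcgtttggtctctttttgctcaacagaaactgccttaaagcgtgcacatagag
BC049987: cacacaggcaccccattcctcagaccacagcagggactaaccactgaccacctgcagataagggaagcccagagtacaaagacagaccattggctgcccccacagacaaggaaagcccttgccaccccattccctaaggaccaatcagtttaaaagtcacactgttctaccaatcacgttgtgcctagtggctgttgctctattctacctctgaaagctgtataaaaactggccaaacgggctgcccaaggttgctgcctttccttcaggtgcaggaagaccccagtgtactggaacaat
The first 3 belong to loci that were lower in both obese groups, and the last to a locus that was higher. In all, 9 RefSeq promoters lay on the loci that moved the same way and held no annotated transcript, apart from those not reported here. TTCNNNGAA occurred in 2 of the 9, both times at 2 places, and in 8.30% of 32851 RefSeq promoters of the same length, with 2 or more places in 0.457%. TGACNNNGC occurred in 1 of the 9 and in 12.4% of all promoters. TGACTCA, the AP-1 site, occurred in none of the 9 and in 5.202% of all. A match is a description of these letters only.

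The labelled tissue was checked against 10 hepatocyte markers. Alb was listed at 0 in all 4 groups and had no tested transcript, so its 0 is not read here as absence of the RNA. The sum over the list was 20360 FPKM in CD, 13046 in HFD, 17575 in misty and 13476 in db. Of the 9 with a tested transcript, 1 was at least 2-fold lower in HFD, and in db 1 was higher and 2 lower. The sums rest on different members in the 2 models. Ttr was listed at 3053 FPKM in CD and 0.664 in misty, and Cyp2e1 at 2.81 in CD and 2681 in misty. Of 8 macrophage markers, 7 had a tested transcript in the HFD table and 5 of these were at least 2-fold higher in HFD, with a summed level of 43.7 FPKM in CD and 102 in HFD. Clec4f was listed at 5.55 FPKM in CD and 5.03 in HFD, Adgre1 at 0.124 and 1.71e-06, and Lyz2 at 29.1 and 73.9. For the db model the sum was 30.7 in misty and 25.8 in db, with Gpnmb at 0 in both. Of the 5 tested there, none was at least 2-fold higher and 1 was lower. Of the lymphocyte markers, 2 of the 4 tested were higher in HFD, with a sum of 1.43 FPKM in CD and 3.12 in HFD, and none of 2 in db, with 2.695 in misty and 2.61 in db. The adipocyte list had 1 tested gene, higher in both models, with sums of 0.0696 and 1.79 FPKM in CD and HFD and 0.0322 and 0.465 in misty and db. Bile duct markers, with Krt7 at 0 in all groups, summed to 4.88 and 5.95 FPKM in CD and HFD and to 5.51 and 2.32 in misty and db, where 1 of 3 was lower. Pancreas markers, with Prss1 at 0 in all groups, summed to 1.67 and 1.402 FPKM in CD and HFD and to 0.798 and 1.96 in misty and db, where the 1 tested was higher. Of 6 stellate cell markers, 2 had a tested transcript for HFD against CD and 3 for db against misty. Of 5 endothelial markers, 4 had one in each model, as did all 4 blood cell markers. None of these tested markers was at least 2-fold higher or lower after 0.1 FPKM was added to each value. The untested markers of these lists were not judged. Col1a2 and Col3a1 of the stellate cell list were at 0 in misty and db. Their part in the values below was not tested.

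Most of these transcripts were scarce. The higher group value was under 1 FPKM for 380 of the 638 in the HFD table (59.6%) and for 482 of the 834 in the db table (57.8%). Just outside and just inside the lower limit were 0.4997 and 0.5017 FPKM in the HFD table and 0.4994 and 0.5001 in the db table. At the upper end the highest values kept were 509.2 and 329.5 FPKM, and the lowest left out were 5227 and 1596. The abundant ones were short: 23 of the 34 transcripts at 10 FPKM or more in the HFD table and 34 of 45 in the db table had loci under 1000 bases. All 10 loci under 300 bases in the HFD table reached at least 22.1 FPKM. Loci of 200 bases were kept, and the longest left out for length had 188 and 193 bases. FPKM divides by transcript length, so high values of such short loci rest on few bases.

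The 638 transcripts of the HFD table came from 572 loci and the 834 of the db table from 759. For 100 and 111 of them the listed locus was a wider block that also held annotated transcripts, so that only the block's position is known. By the gene coordinates in the tables, 299 of 638 (46.9%) lay over 5 kb from any gene, at a median distance of 20490 bases. Another 232 lay within 5 kb of a gene, 156 on its 5′ side and 76 on its 3′ side. A further 100 overlapped a gene's edge, and 7 lay within a gene, by these coordinates Chd1, a chromatin remodeller. Over 3 neighbouring transcripts placed in Chd1, at chr17:17191807-17208677, RefSeq lists Gm38396 and not Chd1. The counts for db were 404 of 834 (48.4%) away from genes, 200 on the 5′ side, 110 on the 3′ side, 101 overlapping and 17 within a gene, with 2 on scaffolds without a gene. The files give no strand for these transcripts, so sense and antisense could not be told apart. Later or other annotations list genes at many of the positions: 186 of the 299 remote loci in the HFD table and 213 of the 404 in the db table overlapped a gene of GENCODE M21 or RefSeq. At 32 loci in each table an edge fell within 100 bases of a RefSeq gene's start, on the matching side.

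In the HFD table, 635 of the 638 had a value above 0 in both groups, and ratios were taken as log2 of HFD over CD after adding 0.1 FPKM to each. Of these, 86 (13.5%) were at least 2-fold higher in HFD and 87 (13.7%) at least 2-fold lower. Over all 19769 tested transcripts the shares were 6.57% higher and 3.83% lower. Among 591 annotated lncRNA transcripts in the same FPKM range they were 6.43% and 6.94%, and among 10238 mRNA transcripts 5.79% and 2.26%. The median log2 ratio was -0.24 for the unannotated transcripts and -0.03 for all tested. Of the other 3, all were listed at 0 in CD. In the db table, 142 of 817 (17.4%) were at least 2-fold higher in db and 139 (17.0%) lower, beside 7.73% and 6.59% of all 19792 tested transcripts, and of the other 17, 14 were listed at 0 in misty and 3 in db. The median log2 ratio there was 0.01, beside -0.04 for all tested. The shares were above those of annotated transcripts at each level of FPKM, as the bar chart of shares by level shows. No group has a spread between livers, so none of these differences could be tested. In whole liver, fewer cells of a type and less RNA per cell cannot be told apart. With 1 FPKM added in place of 0.1, the counts were 22 higher and 13 lower for HFD and 36 and 32 for db.

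**Figure D1:**
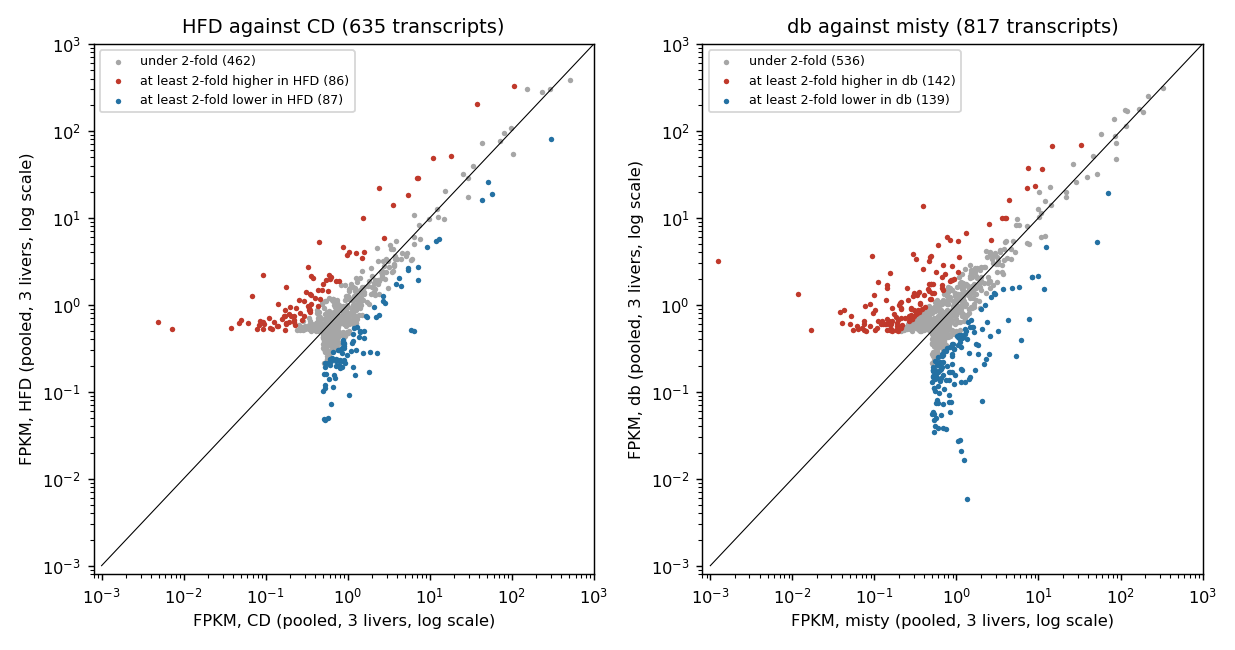
Pooled FPKM of each unannotated transcript in the lean group (x axis, log scale) and in the obese group (y axis, log scale), 1 point per transcript with both values above 0. In the HFD table, 86 points lie at least 2-fold higher and 87 lower, and in the db table, 142 and 139. The diagonal marks equal values, and the empty corner at the lower left is where both values are under 0.5 FPKM.

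**Figure D2:**
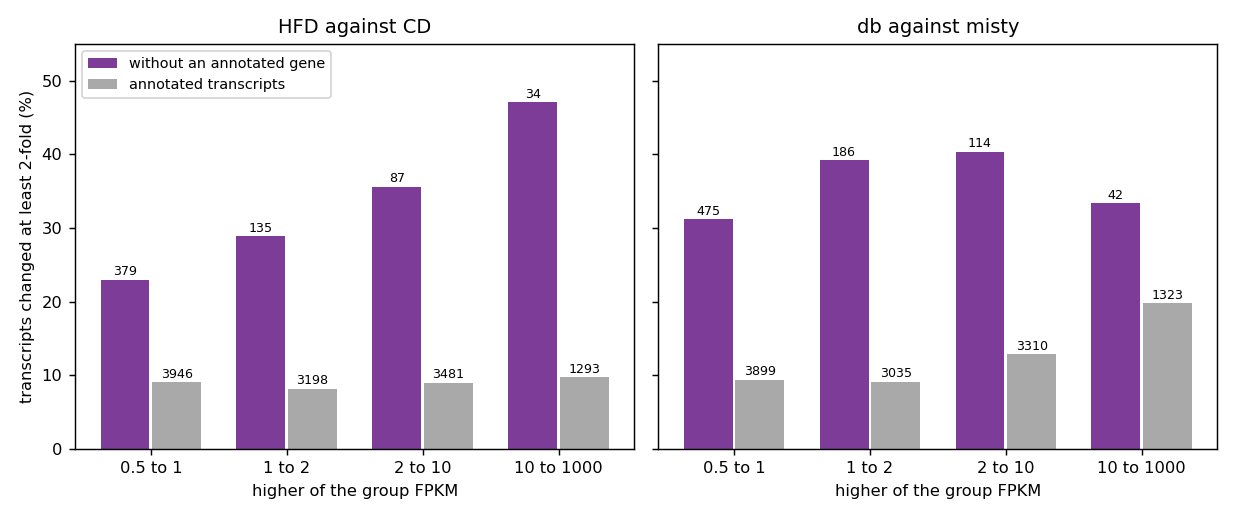
Share of transcripts changed at least 2-fold in either direction (y axis, percent) by the higher of the 2 group values (x axis, FPKM), with the number of transcripts above each bar. Between 2 and 10 FPKM the share was 35.6% of 87 unannotated and 8.96% of 3481 annotated transcripts in the HFD table, and 40.4% of 114 and 12.8% of 3310 in the db table.

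For all unannotated transcripts, 13.5% were higher and 13.7% lower in the HFD table, and 17.4% and 17.0% in the db table. Over all tested transcripts the shares were 6.57% and 3.83%, and 7.73% and 6.59%. Shares by position are set beside these, and their differences were not tested. Among transcripts over 5 kb from any gene in the HFD table, 55 of 297 (18.5%) were at least 2-fold higher and 34 (11.4%) lower. Beside a gene, 20 of 232 (8.62%) were higher and 32 (13.8%) lower. For db the order was the other way round: 60 of 395 remote transcripts were higher and 84 lower, and 56 of 303 beside a gene were higher and 36 lower. On the 3′ side of genes in the db table, 27 of 108 were higher and 8 lower. In the HFD table, 8 of 76 on that side were higher and 16 lower. Own loci of 10000 bases or more held 26 higher (22.0%) and 19 lower (16.1%) of 118 in the HFD table. In the db table they held 12 higher (11.4%) and 26 lower (24.8%) of 105.

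The highest ratio in the HFD table belonged to a locus of 449 bases at chr19:12002241-12002689, over the RefSeq tRNA gene n-TFgaa6, a phenylalanine tRNA, with 0.0925 FPKM in CD and 2.18 in HFD. A locus of 210422 bases at chr13:68090385-68300806, over the RefSeq genes Urml and AA414992, was listed with 0.441 FPKM in CD and 5.21 in HFD, a log2 ratio of 3.30. All 3 of the unannotated transcripts assembled at that locus were at least 2-fold higher. A short locus of 248 bases at chr12:64435068-64435315, remote from any gene, had 2.39 FPKM in CD and 22.1 in HFD. The locus at chr15:52184292-52188904, 106649 bases upstream of the zinc transporter gene Slc30a8, had 0.0680 and 1.28 FPKM. At 5916 bases on the 5′ side of Stim2, a calcium sensor of the endoplasmic reticulum, the locus at chr5:53992236-53992583 had 1.54 and 10.1 FPKM. The locus at chr1:186587496-186602302 lies 20490 bases downstream of Tgfb2, which encodes a transforming growth factor. One transcript there had 0.00716 FPKM in CD and 0.522 in HFD. A second one was listed at 0 in CD and at 0.572 in HFD. At chr7:26061421-26227447, the block of the female-biased cytochrome P450 genes Cyp2b9 and Cyp2b13, one unannotated transcript had 0.00485 FPKM in CD and 0.629 in HFD, and another was listed at 0 in CD and at 1.44 in HFD. Cyp2b13 itself had 0.0628 and 6.19 FPKM.

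The lowest ratio in the HFD table, a log2 ratio of -3.42, was found for 377 bases at chr14:99272518-99272894, 18025 bases downstream of Pibf1. The values there were 6.36 FPKM in CD and 0.502 in HFD. A transcript at chr2:172971829-173163732, a block that also holds the gluconeogenic gene Pck1, had 5.99 FPKM in CD and 0.508 in HFD. Another transcript of that block had 0.796 and 0.231. The 6467 bases at chr14:122171271-122177737 were the most abundant that changed at least 2-fold, with 105 FPKM in CD and 327 in HFD. By the gene coordinates in the tables they lie 3957 bases upstream of Clybl, a mitochondrial lyase of the vitamin B12 pathway. The RefSeq gene Clybl, however, overlaps them, so they may not lie outside that gene. Clybl changed by a log2 ratio of 0.32. At chr8:15519775-15520133, chosen after its values were seen, 297 FPKM in CD stood against 81.1 in HFD, a log2 ratio of -1.87. In the db table the locus chr8:15519775-15520125 had 215 FPKM in misty and 254 in db, a log2 ratio of 0.24. Of the others of high level, a pair differed by under 2-fold, with 509 and 384 FPKM at chr10:11492033-11492232 and 293 and 302 at chr10:96077525-96077897.

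In the db table the highest ratio, 5.03 on the log2 scale, was that of a transcript at chr7:25897620-26230811, the block of Cyp2b10, Cyp2b13 and Cyp2b9, with 0.00124 FPKM in misty and 3.22 in db. A second one in this block was listed at 0 in misty and at 10.4 in db, and Cyp2b10 had 0.112 and 17.2 FPKM. At chr3:14578632-15084618, the block of the carbonic anhydrase genes Car1, Car2 and Car3, one had 0.388 FPKM in misty and 13.6 in db. The 562 bases at chr10:34898260-34898821, over Gm8834, had 0.0939 and 3.60. At chr5:87570016-87575496, 473 bases downstream of the oestrogen sulfotransferase gene Sult1e1, the values were 0.0118 and 1.33 FPKM, and the gene's own log2 ratio was 7.92. The locus at chr12:32745406-32771007 lies 49328 bases upstream of Nampt, which makes nicotinamide mononucleotide for NAD synthesis. It had 0.298 and 3.798 FPKM, and Nampt itself had a log2 ratio of 2.93. In the block of Cyp2c40 and Cyp2c68 at chr19:39688834-39812814 one transcript had 0.156 and 2.31 FPKM while Cyp2c40 had 2.19 and 2.39.

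The lowest ratio in the db table, -3.92 on the log2 scale, was that of chr9:74516115-74528647 over Gm33459, with 5.34 FPKM in misty and 0.260 in db. At chr10:121510146-121514325, whose left edge lies 48 bases from the start of Gm35696, the values were 1.34 and 0.00583. Gm47721, a GENCODE gene over the locus chr13:20645911-20650326, is covered by a transcript with 6.11 FPKM in misty and 0.397 in db. Gm48199, likewise a GENCODE gene, covers chr13:52180078-52198340, with 7.57 and 0.679. Near Lrfn3, at chr7:30365923-30369010, the values were 1.22 and 0.0163 FPKM, and at chr17:18899889-18900124, 14198 bases from the vomeronasal receptor gene Vmn2r97, 51.3 and 5.27. Upstream of Cps1, the first enzyme of the urea cycle, 1103 bases at chr1:67115403-67116505 had 11.6 and 1.503 FPKM (chosen after their values were seen). Listed at 0 in db were 3 transcripts, with 1.73 FPKM in misty at chr17:18901773-18902165, 1.38 at chr8:114106600-114108846 and 0.574 at chr2:105406315-105406946.

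Different mice and separate assemblies allowed the same loci to be looked up in the other model. Loci of the tables that overlapped by at least 50% of each were paired, with the most abundant transcript of each locus. This gave 213 pairs, 37.2% of the 572 loci of the HFD table and 28.1% of the 759 of the db table. Their starts lay a median of 67 bases apart and their ends 71. The log2 ratio had the same sign in 139 of the 213 pairs (65.3%), and across these loci Pearson's r was 0.64 and Spearman's rho 0.53. The points share the build and the aligner but no liver. Across 7293 annotated genes in the same FPKM range, each by its most abundant tested transcript, the same sign was seen in 62.2% and r was 0.43. That transcript was picked in each table separately, so a gene may be compared through different transcripts. Of the paired loci, 16 were at least 2-fold higher in both obese groups, 12 were lower in both and 1 was opposite, so that 28 (13.1%) moved the same way. With an overlap of 80% there were 152 pairs and 18 such loci. Of the annotated genes 120 were higher in both, 83 lower and 26 opposite, and 2.78% moved the same way. A further 20 loci passed 2-fold in the HFD table alone and 31 in the db table alone.

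**Figure D3:**
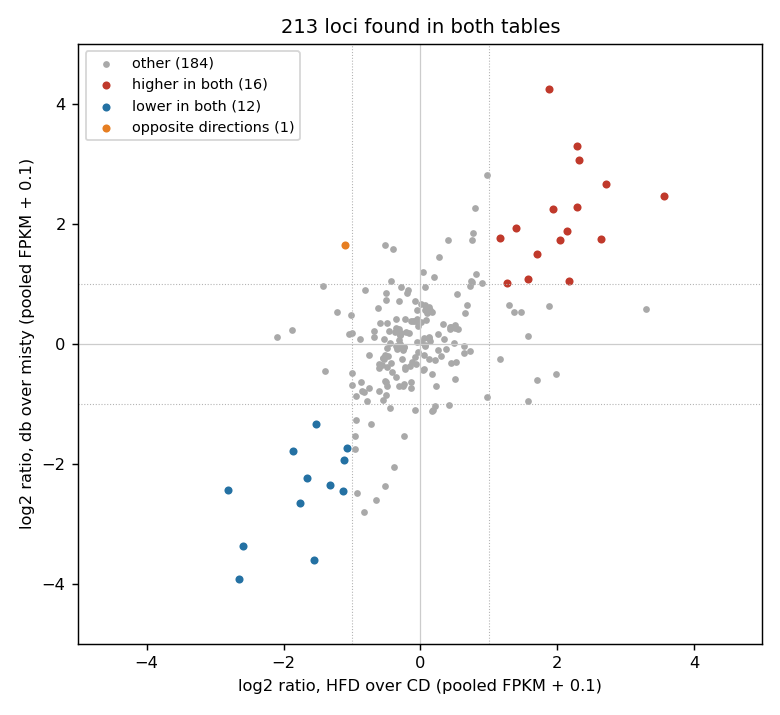
Log2 ratio of HFD over CD (x axis) against that of db over misty (y axis) for the 213 loci found in both tables, 1 point per locus, with dotted lines at 2-fold. Red points (16) are at least 2-fold higher in both, blue points (12) lower in both, and the orange point is the locus with opposite directions.

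Among loci higher in both, that over BC049987 and Gm3953, chr9:44662037-44672339 in the HFD table and 894 bases from the trehalase gene Treh, had 0.331 FPKM in CD, 2.72 in HFD, 0.474 in misty and 3.55 in db. Its right edge lay 79 and 27 bases from the start of BC049987, whose promoter is printed above, in the HFD and db tables. The locus over Gm32885 and Gm33149, chr15:97162564-97173994 in the HFD table, had 0.353 FPKM in CD, 2.17 in HFD, 0.318 in misty and 3.403 in db. The locus over Gm40376, 49221 bases upstream of Nampt in the HFD table, had 0.867 FPKM in CD and 4.64 in HFD. With 0.298 in misty and 3.798 in db, it was higher in both obese groups. That over Gm8834 had 0.312 and 1.42 FPKM in CD and HFD, beside its large ratio in db. At the edge of Gm35742, chr1:172990289-173006509, the values were 0.343 and 1.35 FPKM in CD and HFD and 0.164 and 0.648 in misty and db. The locus near Stim2 had 2.47 FPKM in misty and 8.57 in db, and that near Swap70 had 0.375 in CD, 2.05 in HFD, 0.841 in misty and 1.86 in db. The other higher loci included Gm41912, Gm19587 and Gm50340.

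Among loci lower in both, that over Gm33459 had 2.25 FPKM in CD and 0.276 in HFD, with log2 ratios of -2.65 and -3.92 in HFD and db. Its right edge lay 24 and 39 bases from the RefSeq start of Gm33459. The locus over Gm35696, chr10:121510226-121527737 in the HFD table and lying 18718 bases beyond the innate immune kinase gene Tbk1, had 1.05 FPKM in CD, 0.0915 in HFD, 1.15 in misty and 0.0209 in db. The locus over Gm31583 and Gm46545, chr16:24077582-24090220, 88730 bases from the transcriptional repressor gene Bcl6, had 7.29 FPKM in CD, 1.94 in HFD, 5.80 in misty and 1.61 in db. The locus over Gm34654, chr9:77817983-77851933, 23498 bases from Gclc, which encodes the catalytic subunit of glutamate-cysteine ligase in glutathione synthesis, had 1.27 and 0.302 FPKM in CD and HFD and 1.46 and 0.148 in misty and db. The locus over Gm35739, chr15:76559730-76570417, had 11.9 and 5.45 FPKM in CD and HFD and 8.27 and 2.09 in misty and db. Beside Nudt7, a peroxisomal hydrolase of coenzyme A, the locus chr8:114118640-114131698 had 0.623 and 0.228 FPKM in CD and HFD and 0.857 and 0.0755 in misty and db, while the gene's log2 ratios were -0.17 and -1.26. A locus 12096 bases from Elovl2, an elongase of polyunsaturated fatty acids, had 0.594 and 0.140 FPKM in CD and HFD. In misty and db it had 0.525 and 0.147. One of the 12 lies in a block with annotated genes, that of Eif1a, Tmed7 and Ticam2, with 1.80 FPKM in CD, 0.169 in HFD, 3.18 in misty and 0.503 in db.

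**Figure D4:**
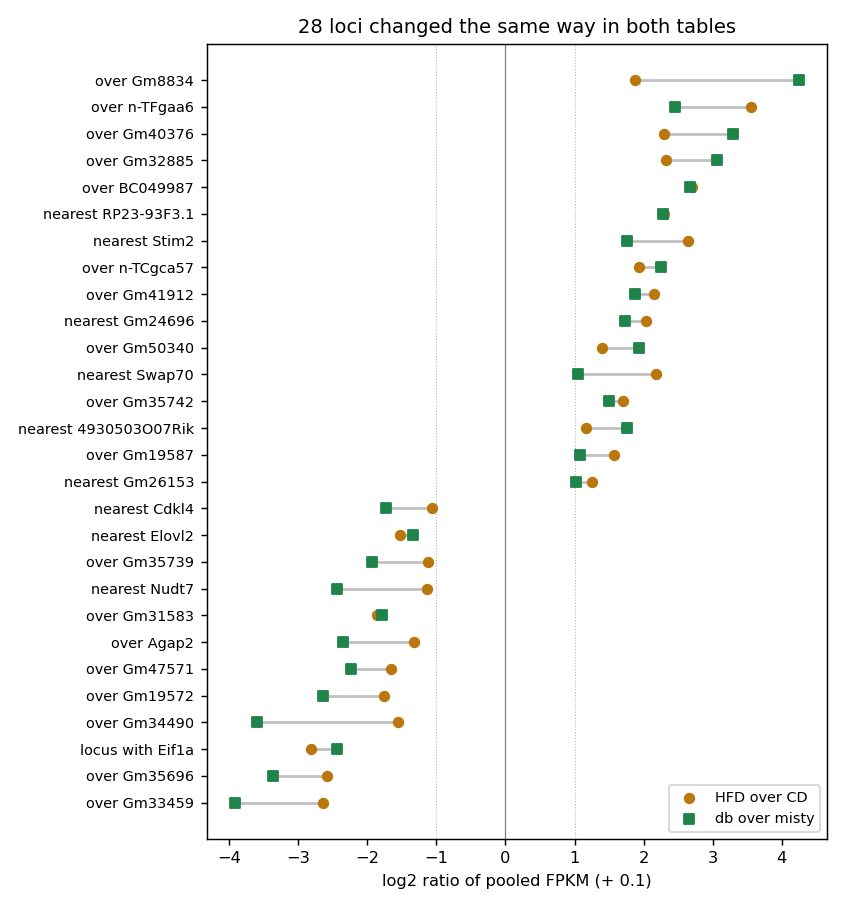
Log2 ratios of HFD over CD (circles) and db over misty (squares) for the 28 loci at least 2-fold changed the same way in both tables, 1 line per locus, named by the RefSeq or GENCODE gene it overlaps or by the nearest gene. The 16 loci above lie right of the upper 2-fold line in both, and the 12 below left of the lower one, with Gm33459 at the bottom.

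Of the loci with no partner, 359 in the HFD table and 546 in the db table, a transcript without a gene was listed at an overlapping position of the other table for 227 and 267. Such loci thus missed the pairing through the limits on level, testing, span or overlap. At 77 and 196 loci nothing overlapping was listed in the other table.

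Loci over tRNA genes were few and mostly higher in obese livers. Transfer RNAs carry amino acids to the ribosome and are made by RNA polymerase III. With db, 9 transcripts with a locus of their own overlapped a RefSeq tRNA gene, 7 of the 8 with both values above 0 were at least 2-fold higher in db, and their median log2 ratio was 2.38. Of all tested transcripts for db, 7.73% were higher, and of the unannotated ones with loci of at least 300 and under 1000 bases 28.9% were higher and 14.2% lower. Of the 14 with a ratio and a locus under 300 bases, 21.4% were higher and 14.3% lower. The locus over n-TQctg9 at chr9:64738055-64738320 had 7.53 FPKM in misty and 37.5 in db. That over n-TDgtc14 had 7.32 and 21.9, that over n-TKctt30 had 0.6001 and 4.86, and that over n-TSgct8 had 0.834 and 5.55. The exception, over n-TSaga5, had 13.8 and 22.5, and the locus over n-TSgct4 was listed at 0 in misty and at 20.5 in db. Both loci of the HFD table over a tRNA gene were higher in HFD. These were n-TFgaa6 and n-TCgca57, and each was higher in db too, with 0.392 and 2.604 FPKM for n-TFgaa6 in misty and db. The locus over n-TCgca57 had 3.61 FPKM in CD, 14.1 in HFD, 1.05 in misty and 5.35 in db. These loci span 237 to 515 bases, longer than a mature tRNA, and identical tRNA copies elsewhere in the genome can share reads. This group was chosen after its values were seen.

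Neighbouring transcripts were also compared with each other. Transcripts with a locus of their own, lying up to 5 kb from the next and with both values above 0, formed 55 stretches of at least 2 in the HFD table and 72 in the db table. All members of a stretch had the same sign in 49 and in 57 of these. All were at least 2-fold higher in 5 stretches and lower in 4 of the HFD table, and higher in 4 and lower in 10 of the db table. Fragments of 1 RNA assembled in pieces share their source, so such transcripts are not independent. For the db model, 4 transcripts at chr12:29139169-29202780, over Gm31333, had log2 ratios between -2.876 and -2.595. The most abundant had 2.51 FPKM in misty and 0.275 in db. In the HFD table, 3 transcripts there had log2 ratios of -0.69, -0.82 and -0.65, under 2-fold each. A stretch of 7 transcripts at chr14:11245238-11275084 was lower in db throughout, with log2 ratios between -2.20 and -1.82. Both stretches were chosen after their values were seen.

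Transcripts within or beside a gene were set against that gene's most abundant annotated transcript. In the HFD table, 173 had such a partner, and the log2 ratios had the same sign in 118 (68.2%), with r of 0.46 across regions. For db against misty the sign was the same for 137 of 224 (61.2%), with r of 0.33. Several of these regions share a gene. Of 36 transcripts at least 2-fold changed in the HFD table, 7 had a gene that was at least 2-fold changed the same way and 22 a gene under 1.5-fold. Among 65 changed in the db table, 17 had such a gene, 3 had one changed at least 2-fold the other way, and for 39 the gene was under 1.5-fold. The correlation was 0.55 for 53 transcripts on the 3′ side of a gene in the HFD table and 0.41 for 113 on the 5′ side, and in the db table it was 0.38 for 68 and 0.28 for 139.

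**Figure D5:**
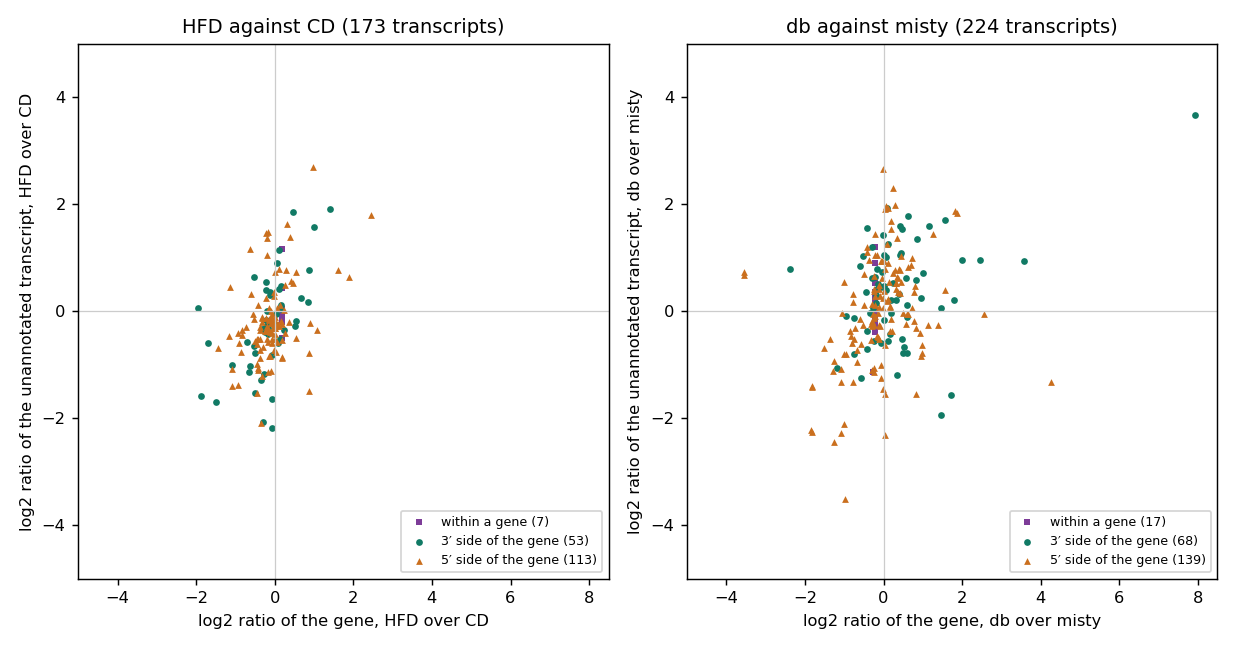
Log2 ratio of the nearest or surrounding gene's most abundant annotated transcript (x axis) against that of the unannotated transcript (y axis), 1 point per transcript, 173 in the HFD table and 224 in the db table, with the symbol giving its side of the gene. Same signs were seen for 118 and 137, and the point at the far right of the db panel is the locus beside Sult1e1.

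The liver gene groups given here had between 0 and 15 of these transcripts in or within 5 kb of their genes, and their counts stand beside 13.5% higher and 13.7% lower for all unannotated transcripts in the HFD table and 17.4% and 17.0% in the db table (6.57% and 3.83%, and 7.73% and 6.59%, of all tested). Of 28 male-biased liver genes, 3 had one in each table. In the HFD table these were 3 transcripts, 2 at least 2-fold lower and 1 higher, and in the db table, 7, 3 lower and none higher, with a median log2 ratio of -0.69. Beside Cyp2d9, a male-biased steroid hydroxylase, the transcript at chr15:82446097-82452220 had 1.43 FPKM in CD and 0.490 in HFD. In the db table, 5 transcripts shared the Cyp2d9 block, 2 of them at least 2-fold lower. For 15 female-biased genes, the only transcript with a ratio in the HFD table, at Cyp2b9 and Cyp2b13, was higher, and both in the db table were, at Cyp2b9 and Cyp2b13 and beside Acot3, an acyl-CoA thioesterase. Of 29 genes of xenobiotic metabolism, 4 had 8 transcripts in the HFD table, 2 of them lower and none higher, and 10 had 15 in the db table, 5 of the 14 with a ratio higher and 2 lower. Beside Cyp2c37, a transcript had 2.41 FPKM in CD and 0.768 in HFD, and another had 0.707 in misty and 1.48 in db. Genes of fatty acid oxidation, 15 in number, had 3 transcripts in the HFD table, all in the block of Ppara, the fatty acid sensing nuclear receptor, with 1 lower, and none in the db table. The 26 genes of lipogenesis and sterol synthesis had 1 transcript in the db table, at Insig2, under 2-fold, and none in the HFD table. The 16 genes of lipid droplets and uptake had none in either table. Among 19 genes of glucose and insulin metabolism, the HFD table had the 2 transcripts of the Pck1 block, both lower, and the db table none. Of 13 bile acid genes, Slc10a1, the bile acid importer, lay in a block with 1 transcript, chr12:80939878-80968817, at 0.576 FPKM in CD and 0.212 in HFD, and the db table had none. The 20 acute phase genes had 2 transcripts in the HFD table, 1 of them higher, in the serpin block at chr12:104338393-104562363 with 0.127 FPKM in CD and 0.630 in HFD. The other, beside Orm1, had 0.334 and 0.531, and the 1 in the db table, beside Itih4, had 0.909 in misty and 0.884 in db. The 14 clock genes had 1 transcript in the HFD table, in the block of Tef with 0.533 FPKM in CD and 1.11 in HFD, under 2-fold, and 2 in the db table, 1 higher and 1 lower. The higher one, at chr5:76305674-76306221 within 5 kb of Clock, had 0.0425 FPKM in misty and 0.874 in db. Its nearest gene was Gm7467, 147 bases away. Of the transcription factor genes of this list, Tef had a transcript 3834 bases beyond its 3′ end with 1.66 FPKM in misty and 0.493 in db, whereas Tef itself had 2.94 and 9.83. The study picked 7 liver-enriched lncRNA genes as associated with diet-induced obesity, so their direction in HFD is not independent evidence. By them lay 2 transcripts in each table, both lower in HFD, and 1 higher and 1 lower in db. Beside Gm45043, in the neighbourhood of Irs2, the locus at chr8:10896158-10897064 had 0.847 FPKM in CD and 0.194 in HFD, and Gm45043 itself had 1.03 and 0.297. Beside 9030622O22Rik, the values were 9.34 FPKM in CD and 4.58 in HFD, and the gene itself had 8.16 and 3.79. In db, the transcript in the block of C730036E19Rik had 0.485 FPKM in misty and 3.64 in db, and that beside 9030616G12Rik had 0.553 and 0.0401.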

How the data were processed

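RNA of 12 mouse livers, 3 in each of 4 groups, was sequenced. The submitters' notes and the methods section state that ribosomal RNA was filtered out (Bowtie2 2.2.9), that STAR 2.6.0c placed the remaining reads on GRCm38, that Cufflinks 2.2.1 built transcripts which were then merged, and that Cuffdiff contrasted obese with lean livers, which gave 1 deposited table for each model. The FPKM values are the authors' pooled value per group, as Cuffdiff gave it. The sources disagree on the library kit, the sequencer and the age of db and misty mice. The tables also hold the authors' fold changes, test statistics, p-values, q-values and significance calls, and none of these was used. The column saying whether a transcript could be tested served as a filter.

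With 1 value per group there is no spread, so no test was made: a transcript was called where log2 of the ratio of FPKM + 0.1 was at least 1 in size and both values were above 0. A fold on this scale understates the change of scarce transcripts. Loci were converted to positions counted from 1 and placed against the gene coordinates of the same table, GENCODE M21 and RefSeq, all of GRCm38. Of the gene IDs shared with GENCODE M21, 88.1% had the same start and end in both. Promoter sequences are RefSeq's. Named transcripts are the 8 highest and 8 lowest ratios of each table (1 per stretch of neighbours up to 5 kb apart), the 4 highest and lowest over 5 kb from genes, the 4 most abundant, the stretch with the most transcripts, those at 0 in 1 group, the 6 paired loci with the strongest common change and the opposite ones, and those by genes of 12 lists. The transcripts, lists and rule were chosen with earlier results of these data known. Scripts (Python 3.11.15, pandas 2.3.3, numpy 2.4.6) were tested on simulated data. Alternatives are given at the end. The replicates cannot be told apart in pooled values. A few loci that the rule names, and 1 of the lists, are not reported here.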

Additional observations from a re-analysis of the deposited data

Results flagged for a closer look

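The locus over the RefSeq genes Gm39776 and Gm52506 (chr2:27569634-27585909 in the HFD table) was the paired locus whose 2-fold changes had opposite directions. It had 0.886 FPKM in CD and 0.360 in HFD, a log2 ratio of -1.10, and 0.486 in misty and 1.74 in db, a log2 ratio of 1.65. The difference between the models was not tested, since each table holds 1 pooled value per group.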

How the results depend on the processing

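No paired analysis was possible because the deposited values are pooled over the livers of a group, and for the same reason no liver could be left out. Counts below give transcripts at least 2-fold higher and lower. A pseudocount of 1 in place of 0.1 left 22 and 13 in the HFD table, with a median log2 ratio of -0.12, and 36 and 32 in the db table. Without limits on FPKM there were 243 and 240 for HFD and 424 and 464 for db, and with a minimum of 2 FPKM 24 and 23, and 34 and 26, with a median of 0.27 for db. Over 5 kb from any gene there were 55 and 34 for HFD, with a median of -0.056, and 60 and 84 for db; these 2 settings and the minimum of 2 FPKM take fewer transcripts by construction. With loci of 1000 bases or more, 76 were higher in db and the db median turned to -0.092, from 0.01. That median also lay between -0.045 and -0.0039 without FPKM limits, with 1 transcript per stretch, over 5 kb from genes and from 300 bases on. Of the loci that moved the same way, 18 were left with an overlap of 80% and 55 at 1.5-fold. Within 1 kb, 268 of the db transcripts lay in or beside a gene, against 428 within 5 kb. Other causes were not tested. A pseudocount of 0.01, centring on the median of all tested transcripts, 1 transcript per stretch and counting transcripts at 0 kept these counts within 1.5 times. So did 3 alternatives chosen after seeing the data: leaving out loci that hold annotated transcripts, loci of at least 300 bases and the genes of GENCODE M21. Under the pseudocount of 1, 31 of the 134 named transcripts with a ratio no longer passed 2-fold. Most transcripts are near the lower limit of FPKM, where few fragments decide a ratio, and the depth behind them is unknown.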
